A study of Mus musculus with 11 samples.

Results

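AP-1 and immediate-early genes were followed in mouse mammary tumors with and without *Pcbp1*. The 10 genes were *Fos*, *Fosb*, *Fosl1*, *Jun*, *Junb*, *Jund*, *Egr1*, *Atf3*, *Dusp1* and *Ier2*, chosen by gene name from the 26283 genes of the deposited tables. All 10 had a single row and passed the filter on low counts, as did 19232 genes in all.

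RNA from 11 tumors was sequenced as poly(A)-enriched, stranded libraries, which the labels place in a single batch. The 6 PyMT *Pcbp1*–/– tumors came from C57BL/6 mice with MMTV-PyMT, MMTV-Cre and *Pcbp1* fl/fl alleles, and the 5 PyMT *Pcbp1*+/+ tumors from mice with MMTV-PyMT, MMTV-Cre and *Pcbp1* wt/wt alleles. All animals were 18 weeks old. MMTV-PyMT expresses the polyomavirus middle T oncogene in the mammary epithelium. The paper describes the MMTV-Cre knockout of *Pcbp1* as selective for mammary epithelial cells, and *Pcbp1* in stromal cells was not measured separately here. The comparison asked how loss of *Pcbp1* in the epithelium relates to transcript levels in whole tumors.

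AP-1 is a dimer of FOS and JUN family proteins, which join through leucine zippers and bind DNA through basic regions. Immediate-early genes are transcribed within minutes of a growth factor, stress or wounding signal without new protein synthesis, largely through MAP kinases acting on serum response and cAMP response factors. In mammary tumors the PyMT oncoprotein engages SRC, PI3K and RAS signaling, which feeds into the same kinases.

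Total estimated counts ranged from 10543200 to 14092200 per tumor, with medians of 13135800 in PyMT *Pcbp1*–/– and 10975700 in PyMT *Pcbp1*+/+ tumors. These totals differed by genotype (p = 0.0173 in an exact permutation test, 2-sided, over 462 splits), and levels are therefore given as CPM, counts scaled to a total of 1000000 in each tumor. At these depths 3 counts correspond to between 0.213 and 0.285 CPM, a floor that covers counting error only. *Pcbp1* itself, the check of the labels, lay between 15.4 and 33.6 CPM in knockout tumors and between 220 and 271 CPM in wild-type tumors (log2 fold change -3.43, edgeR adjusted p = 4.72e-06).

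None of the 10 genes passed edgeR's test at an adjusted p under 0.05: 0 were called lower and 0 higher in PyMT *Pcbp1*–/– tumors, beside 1.66% and 0.608% of all genes. At an unadjusted p under 0.05, 5 of the 10 were lower and 0 higher, beside 10.5% and 8.19% of all genes, or 18.7% in either direction. That count of 5 was 3 without wild-type tumor 1 and ranged from 3 to 6 over the alternatives. DESeq2 also called 0 of the 10, while calling 3.77% of genes lower and 2.51% higher. Limma-voom with sample quality weights called 1, *Dusp1*, while calling 6.19% of genes lower and 5.03% higher. All 10 fold changes were below 0, with a median log2 fold change of -0.36, beside 9619 of 19232 genes below 0 and a median of -0.00012 over all genes tested. *Fosb* and *Jun* lay so close to 0 that leaving out a single tumor turned their sign. For 0 of the 10 genes did the groups separate completely, beside 2.02% of genes with every knockout tumor below every wild-type tumor and 1.27% with every knockout tumor above. These are whole-tumor samples, in which fewer cells of a type and less RNA per cell cannot be told apart.

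**Figure D1:**
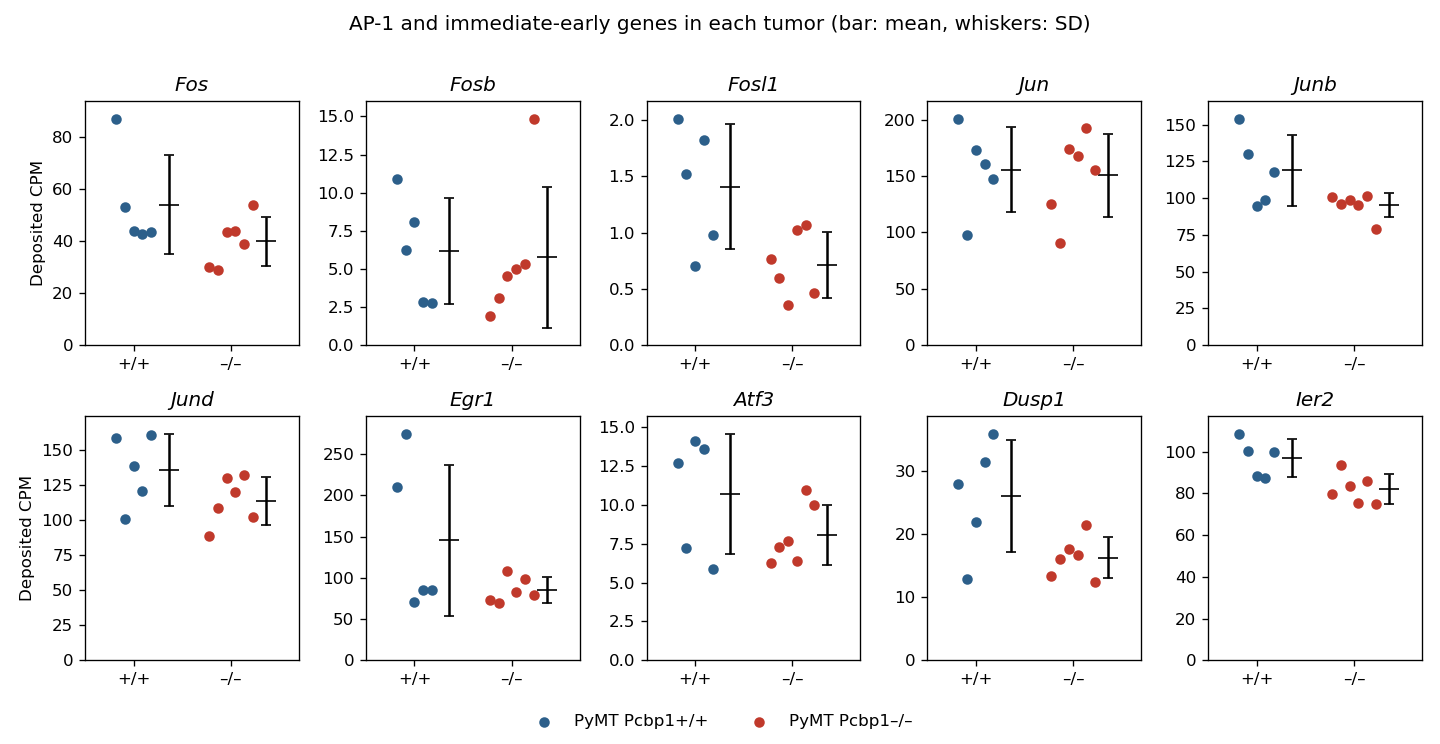
Deposited CPM of the 10 genes in each tumor, on linear axes that start at 0. Each point is a tumor (5 PyMT *Pcbp1*+/+ and 6 PyMT *Pcbp1*–/–), with the mean and SD beside it; the groups overlap in every panel, and *Fos* reaches 87.1 CPM in a single wild-type tumor.

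Among the FOS subunits, *Fos* encodes the prototype partner of JUN proteins. *Fos* (ENSMUSG00000021250.13, plus strand, chr12:85473890-85477273 in GRCm38) lay between 28.9 and 54.0 CPM in the 6 knockout tumors, with a median of 41.2 CPM. In wild-type tumors 1 to 5 it reached 87.1, 53.0, 44.1, 42.8 and 43.5 CPM. Wild-type tumor 1 stood far above the others, knockout tumors 1, 2 and 5 were below every wild-type tumor, and the remaining tumors of both groups overlapped. The means were 39.9 ± 9.42 CPM (SD, n = 6) in knockout and 54.1 ± 18.9 CPM (SD, n = 5) in wild-type tumors. The log2 fold change was -0.42 (SE 0.20, 95% interval -0.86 to 0.02, edgeR adjusted p = 0.288). Without wild-type tumor 1 it was -0.22 (edgeR adjusted p = 0.559).

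*Fosb*, whose product also pairs with JUN proteins, was a scarcer transcript (ENSMUSG00000003545.3, minus strand, chr7:19302696-19310051). It lay between 1.88 and 14.8 CPM in knockout tumors, with a median of 4.75 CPM. Wild-type tumors 1 to 5 had 10.9, 6.26, 8.06, 2.83 and 2.77 CPM. Knockout tumor 6 was the highest of all 11 tumors and knockout tumor 1 the lowest, so that a single genotype spanned the whole range. The log2 fold change of -0.077 (SE 0.50, edgeR adjusted p = 0.951) was small against this spread, and the interval from -1.17 to 1.01 allows a doubling in either direction. Without knockout tumor 6 the estimate was -0.63 (edgeR adjusted p = 0.441).

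*Fosl1* encodes FRA1, a FOS-related subunit without the transactivation domain of FOS. Its row (ENSMUSG00000024912.5, plus strand, chr19:5447703-5455945) rests on few counts, from 4 to 22 in a tumor. It lay between 0.356 and 1.06 CPM in knockout tumors, with a median of 0.684 CPM, and at 2.01, 1.52, 0.701, 1.82 and 0.982 CPM in wild-type tumors 1 to 5. Wild-type tumors 1, 2 and 4 were above every knockout tumor, and wild-type tumors 3 and 5 were within the knockout range. *Fosl1* had the lowest log2 fold change of the 10 genes, -0.93 (SE 0.33, 95% interval -1.66 to -0.21), and did not pass the test (edgeR adjusted p = 0.159).

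Of the JUN subunits, *Jun* (ENSMUSG00000052684.4, minus strand, chr4:95049034-95052222) encodes the main transactivating partner. It lay between 90.9 and 193 CPM in knockout tumors, with a median of 161 CPM. Wild-type tumors 1 to 5 had 201, 97.5, 173, 161 and 147 CPM. Tumor 2 of each genotype was the lowest of its group, and the groups covered nearly the same range. Genotype made little difference, with a log2 fold change of -0.042 (SE 0.21, 95% interval -0.49 to 0.41, edgeR adjusted p = 0.936). *Junos*, an antisense gene that overlaps *Jun* on the plus strand, averaged 4.04 CPM in knockout and 4.37 CPM in wild-type tumors; whether counting used strand is not given in the sources used here.

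*Junb*, often a weaker activator than *Jun* and an antagonist of it in some settings (ENSMUSG00000052837.6, minus strand, chr8:84974484-84978718), was even across knockout tumors 1 to 5 and lower in knockout tumor 6. Over all knockout tumors it lay between 78.9 and 101 CPM, with a median of 97.4 CPM. In wild-type tumors 1 to 5 it was at 154, 130, 94.9, 98.4 and 118 CPM. Wild-type tumors 1, 2 and 5 were above all knockout tumors, and knockout tumor 6 was below all others. *Junb* had a log2 fold change of -0.32 (SE 0.11, 95% interval -0.56 to -0.07), short of the threshold (edgeR adjusted p = 0.163). The plus-strand gene *Prdx2*, whose row overlaps the end of *Junb*, was at 52.7 CPM in knockout and 48.9 CPM in wild-type tumors.

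*Jund* encodes the JUN subunit that is abundant in resting cells (ENSMUSG00000071076.6, plus strand, chr8:70698949-70700616). It lay between 88.5 and 132 CPM in knockout tumors, with a median of 114 CPM. Wild-type tumors 1 to 5 had 159, 101, 139, 121 and 161 CPM. Wild-type tumors 1, 3 and 5 were above the knockout range, and wild-type tumor 2 was near its lower end. Against this spread the log2 fold change was -0.26 (SE 0.15, edgeR adjusted p = 0.371), and -0.17 without wild-type tumor 5.

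The widest wild-type spread belonged to *Egr1*, a zinc finger factor induced together with *Fos* through serum response factor (ENSMUSG00000038418.7, plus strand, chr18:34859823-34864984). In knockout tumors it lay between 70.0 and 109 CPM, with a median of 81.1 CPM. In wild-type tumors 1 to 5 it was at 210, 274, 71.2, 85.6 and 85.4 CPM. Wild-type tumors 1 and 2 stood above all others, while the remaining 3 wild-type tumors were within the knockout range. The log2 fold change of -0.74 (SE 0.31, 95% interval -1.43 to -0.06, edgeR adjusted p = 0.228) rested on those tumors: it was -0.60 without wild-type tumor 1, -0.38 without wild-type tumor 2 and -0.20 with limma-voom. The inducible heat shock gene *Hspa1a* was highest in the same tumors, at 110 CPM in wild-type tumor 1 and 132 CPM in wild-type tumor 2. Elsewhere *Hspa1a* lay between 32.4 and 65.5 CPM, and its part in the *Egr1* values was not tested.

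*Atf3*, a stress-induced bZIP factor that can repress as a homodimer, was on the minus strand at chr1:191170296-191218039 (ENSMUSG00000026628.13). It lay between 6.24 and 10.9 CPM in knockout tumors, with a median of 7.46 CPM. Wild-type tumors 1 to 5 had 12.7, 7.21, 14.1, 13.6 and 5.89 CPM. Wild-type tumors 1, 3 and 4 were above all knockout tumors, and wild-type tumor 5 was the lowest of all. For *Atf3* the log2 fold change was -0.40 (SE 0.25, edgeR adjusted p = 0.408), -0.24 without wild-type tumor 3 and -0.63 with limma-voom.

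*Dusp1*, the phosphatase that switches off MAP kinases after induction, had the lowest adjusted p of the 10 genes (ENSMUSG00000024190.6, minus strand, chr17:26505590-26508519). It lay between 12.4 and 21.4 CPM in knockout tumors, with a median of 16.4 CPM. Wild-type tumors 1 to 5 had 28.05, 12.9, 22.0, 31.5 and 35.9 CPM. All wild-type tumors but tumor 2 were above the knockout range. Its log2 fold change was -0.68 (SE 0.23, 95% interval -1.18 to -0.18, edgeR adjusted p = 0.142). It passed the threshold without wild-type tumor 2 (log2 fold change -0.85, edgeR adjusted p = 0.0274) and with limma-voom (-0.67, adjusted p = 0.0289). Over all 21 alternatives its adjusted p ranged from 0.0274 to 0.264.

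*Ier2*, an immediate-early nuclear protein, was the least variable of the 10 genes (ENSMUSG00000053560.4, minus strand, chr8:84661331-84662852). It lay between 74.9 and 93.7 CPM in knockout tumors, with a median of 81.5 CPM. Wild-type tumors 1 to 5 had 108, 101, 88.5, 87.4 and 100 CPM. Knockout tumor 2 was the only knockout tumor within the wild-type range, and the other 5 lay below it. The log2 fold change was small, -0.24 (SE 0.084, 95% interval -0.43 to -0.06, edgeR adjusted p = 0.151).

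**Figure D2:**
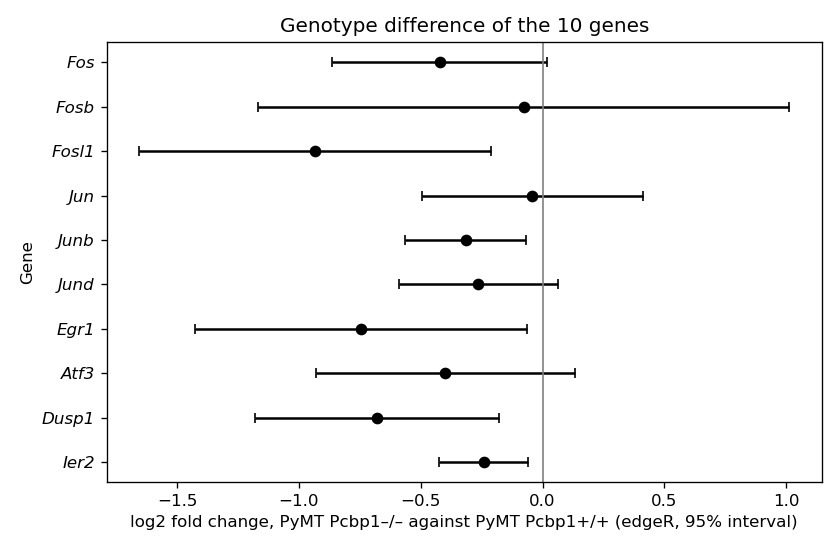
The log2 fold change (horizontal axis) of each of the 10 genes in PyMT *Pcbp1*–/– against PyMT *Pcbp1*+/+ tumors from edgeR, with points for the estimate and bars for the 95% interval. All 10 estimates lie below 0, from -0.93 for *Fosl1* to -0.042 for *Jun*, and none passed the threshold after adjustment over all genes tested.

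Tumor 1 of the wild-type group stood out across the genes. It had the highest level of 5 of the 10 and was among the top 2 tumors for 8, with a mean rank of 1.7 among the 11 tumors. Knockout tumor 1 had a mean rank of 9.0 and knockout tumor 2 of 8.5. The other knockout tumors had mean ranks from 4.8 to 7.5, and wild-type tumors 2 to 5 from 5.2 to 5.6, so that knockout tumor 5, at 4.8, ranked above those 4 wild-type tumors. Wild-type tumor 1 also had the highest summed basal or myoepithelial markers, 916 CPM, beside 103 to 443 CPM in the other tumors. Knockout tumor 1 had the lowest summed luminal epithelial markers, 1760 CPM, and the highest macrophage and endothelial sums, 604 and 117 CPM. The part of these cells was not tested.

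Several of these genes varied more between tumors of the same genotype than most genes of similar level. The pooled within-group SD on the log2 scale was 0.86 for *Fosb*, beside a median of 0.29 over the 5543 genes within 2-fold of its mean CPM, and 96.1% of those genes were below it. For *Egr1* the SD was 0.61 against a median of 0.20, with 95.8% of genes below. That spread lay mainly in the wild-type group, where the SD was 0.88, beside 0.25 in knockout tumors. *Fos* was at 0.38, *Jun* at 0.39 and *Dusp1* at 0.43, above 85.2%, 86.5% and 87.1% of genes of similar level. *Atf3* at 0.44 and *Jund* at 0.25 were above 82.3% and 66.5% of theirs. *Junb* at 0.22 and *Fosl1* at 0.40 were near the middle of theirs. *Ier2*, at 0.13, was above 15.4% of its own.

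Levels were set side by side per kilobase of annotated exon length, from GENCODE vM39. *Jund* had the highest mean on this scale, at 68.2 ± 10.2 CPM per kb (SD, n = 6) in knockout and 81.6 ± 15.3 CPM per kb (SD, n = 5) in wild-type tumors. Its SD range overlapped that of *Ier2* in both genotypes and that of *Jun* in knockout tumors. *Ier2* followed at 53.9 ± 4.68 and 63.6 ± 5.87 CPM per kb, *Jun* at 47.3 ± 11.5 and 48.9 ± 11.9 and *Junb* at 39.99 ± 3.51 and 49.9 ± 10.2. In wild-type tumors these 3 did not differ beyond their spread, while in knockout tumors *Ier2* was above *Junb* by more than their SDs. *Egr1* (19.0 ± 3.40 and 32.3 ± 20.3 CPM per kb) and *Fos* (16.9 ± 3.99 and 22.9 ± 8.01) came next and overlapped within their SD. *Dusp1* was at 4.90 ± 0.978 and 7.84 ± 2.69, *Atf3* at 3.31 ± 0.796 and 4.38 ± 1.58, *Fosb* at 0.925 ± 0.741 and 0.986 ± 0.557 and *Fosl1* at 0.351 ± 0.143 and 0.692 ± 0.272 CPM per kb. *Jun*, *Junb* and *Jund* were each above *Fos*, *Fosb* and *Fosl1* in mean level on this scale in both genotypes.

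*Fos* was compared with each of the other 9 genes over the 11 tumors, on log2(CPM + 0.5) with 2-sided permutation tests adjusted over the 9 pairs. *Fosb* came closest (Pearson r = 0.744, permutation p = 0.0078, adjusted p = 0.0702; Spearman rho = 0.809, permutation p = 0.00414, adjusted p = 0.0373), so that the rank measure passed the threshold and the linear one did not. With values centred on group means the linear measure did pass (r = 0.806, permutation test within groups, adjusted p = 0.0174), unlike under the other alternatives. Without wild-type tumor 1 and knockout tumor 2, the tumors farthest from the median of *Fos*, r was 0.752 (exact permutation test, adjusted p = 0.204), and within the 6 knockout tumors it was 0.895 (exact permutation test, adjusted p = 0.137). *Egr1* followed with r = 0.689 (permutation p = 0.0254, adjusted p = 0.114) and rho = 0.427 (permutation p = 0.194, adjusted p = 0.783), and r was 0.468 without those tumors. *Junb* had r = 0.568 (permutation p = 0.0749, adjusted p = 0.211) and rho = 0.0455 (permutation p = 0.902, adjusted p = 0.902). That relation rested on the outlying tumors, since r was -0.024 without them. For *Jun*, r = 0.481 (permutation p = 0.141, adjusted p = 0.211) and rho = 0.373 (permutation p = 0.261, adjusted p = 0.783), and r was -0.14 without the same tumors. The other 5 genes had r between 0.25 for *Dusp1* and 0.487 for *Fosl1*, with adjusted permutation p from 0.211 to 0.474, and rho between -0.0727 and 0.291, with adjusted permutation p from 0.84 to 0.902. Without the outlying tumors their r lay between -0.117 and 0.198. Within the 6 knockout tumors r turned below 0 for *Fosl1* (-0.239), *Junb* (-0.657), *Dusp1* (-0.102) and *Ier2* (-0.684). It stayed above 0 there for *Jun* (0.714), *Jund* (0.334), *Egr1* (0.481) and *Atf3* (0.473). Of all 45 pairs among the 10 genes, described without a test, 40 had r above 0, with a median of 0.419. The highest were *Junb* with *Ier2*, at 0.859, and *Jund* with *Dusp1*, at 0.839.

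**Figure D3:**
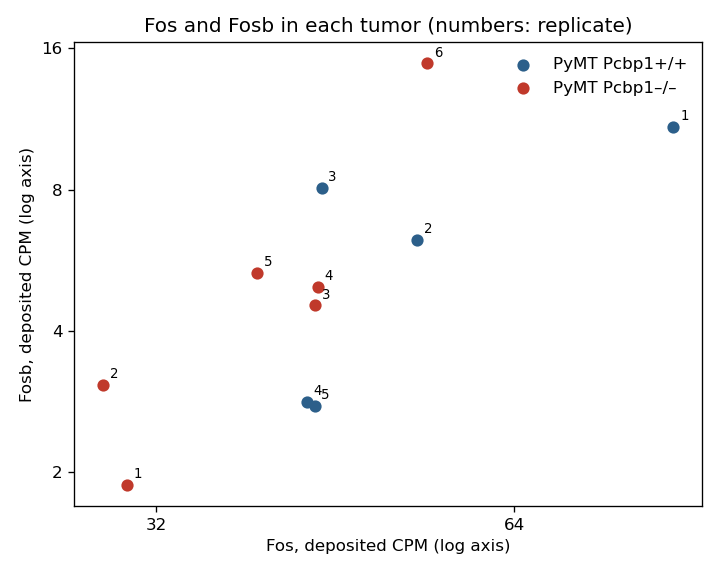
*Fos* (horizontal axis) against *Fosb* (vertical axis) in the 11 tumors, as deposited CPM on log axes, with the replicate number beside each point. Knockout tumors 1 and 2 are low in both genes, and knockout tumor 6 and wild-type tumor 1 are high in both (r = 0.744).

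Outside the 10 genes, the 5 whose pattern over the 11 tumors was most like that of *Fos*, among 18685 genes with a mean of at least 1 CPM, were *RP24-448C16.2* (r = 0.933), *Dicer1* (r = 0.907), *Pramef8* (r = 0.899), *Cdk18* (r = 0.895) and *Als2cl* (r = 0.889). *Dicer1*, which encodes the nuclease that matures microRNAs, lay between 90.6 and 132 CPM, with wild-type tumor 1 the highest and knockout tumor 2 the lowest, as for *Fos*. The ranking is a description over 11 tumors.

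Other bZIP proteins can pair with AP-1 subunits. Of the 21 tested, 14 had a fold change below 0 and 7 above, with a median log2 fold change of -0.13, beside -0.00012 over all genes tested.

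Of 40 other immediate-early and early response genes tested, 1 was called lower and 0 higher by edgeR, and at an unadjusted p under 0.05 the counts were 9 and 1, beside 10.5% and 8.19% of all genes (1.66% and 0.608% after adjustment). DESeq2 called 3 lower and 0 higher, beside 3.77% and 2.51% of all genes. Limma-voom called 8 lower and 1 higher, beside 6.19% and 5.03%. *Per1*, a clock gene that also responds to serum and glucocorticoids, was at 22.1 ± 3.99 CPM (SD, n = 6) in knockout and 32.3 ± 4.65 CPM (SD, n = 5) in wild-type tumors (log2 fold change -0.55, SE 0.13, edgeR adjusted p = 0.0495). Its values overlapped, since knockout tumor 2 had 29.2 CPM and wild-type tumor 3 had 26.6 CPM. The call for *Per1* held in 7 of 21 alternatives, and its adjusted p ranged from 0.00581 (DESeq2) to 0.131 (edgeR with the replicate block). The median log2 fold change of this list was -0.20, and 30 of the 40 genes were below 0.

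Kinases and serum response factors upstream of the immediate-early genes gave 0 calls by edgeR among 35 tested, beside 1.66% lower and 0.608% higher of all genes. At an unadjusted p under 0.05, 2 were lower and 2 higher, beside 10.5% and 8.19% of all genes. The median log2 fold change of the list was 0.06. The lowest p values belonged to *Map2k7*, a kinase of JNK, with 43.0 and 53.9 CPM in knockout and wild-type tumors (log2 fold change -0.32, edgeR adjusted p = 0.0853), and *Araf*, a RAF kinase, with 60.2 and 76.7 CPM (-0.35, edgeR adjusted p = 0.095). DESeq2 and limma-voom each called both of these genes lower, *Map2k7* with adjusted p = 0.0246 and 0.0421 and *Araf* with adjusted p = 0.0359 and 0.0205, and called no other gene of the list. Over all genes, DESeq2 called 3.77% lower and 2.51% higher, and limma-voom 6.19% and 5.03%. Negative feedback genes of MAP kinases gave 0 calls among 17 by edgeR, DESeq2 or limma-voom, with a median log2 fold change of -0.11. By edgeR 1 was lower and 2 higher at an unadjusted p under 0.05, beside 10.5% and 8.19% of all genes. The phosphatase *Dusp5* averaged 22.3 and 32.2 CPM (log2 fold change -0.54, edgeR adjusted p = 0.152), and the fold change was -0.33 without wild-type tumor 5. The RAS pathway inhibitor *Spred1* averaged 204 and 168 CPM (0.28, edgeR adjusted p = 0.168).

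Textbook AP-1 target genes gave 0 calls by edgeR among 23 tested, beside 1.66% lower and 0.608% higher of all genes. At an unadjusted p under 0.05, 2 were lower and 1 higher, beside 10.5% and 8.19% of all genes. DESeq2 called 1 lower, *Spp1*, beside 3.77% of all genes, and limma-voom called 1 higher, *Ccnd1*, beside 5.03%. The median log2 fold change of the list was -0.05, beside -0.00012 over all genes. *Spp1*, which encodes osteopontin, lay between 101 and 391 CPM in knockout tumors and between 193 and 1445 CPM in wild-type tumors (log2 fold change -1.53, SE 0.44, edgeR adjusted p = 0.0941; DESeq2 adjusted p = 0.0116; limma-voom log2 fold change -0.98, adjusted p = 0.146). Wild-type tumor 1 was the highest. *Ptgs2*, the inducible cyclooxygenase, averaged 5.98 ± 2.77 CPM (SD, n = 6) and 12.7 ± 5.68 CPM (SD, n = 5), with a log2 fold change of -1.08 (SE 0.37, edgeR adjusted p = 0.141; limma-voom log2 fold change -0.69, adjusted p = 0.23).

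Immediate-early and some heat shock genes can be induced while tissue is handled, and 15 heat shock genes were measured beside them. By edgeR 0 were called, beside 1.66% lower and 0.608% higher of all genes, and their median log2 fold change was 0.02. At an unadjusted p under 0.05, 3 were lower and 1 higher, beside 10.5% and 8.19% of all genes. DESeq2 called 1 lower, *Hspa1a* (adjusted p = 0.041), and 1 higher, *Dnajb1* (adjusted p = 0.041), beside 3.77% and 2.51% of all genes. Limma-voom called 2 higher, *Dnajb1* (adjusted p = 0.0172) and *Hsp90aa1*, and 0 lower, beside 5.03% and 6.19% of all genes. *Hspa1a* averaged 47.3 ± 12.3 CPM (SD, n = 6) in knockout and 83.2 ± 35.3 CPM (SD, n = 5) in wild-type tumors (log2 fold change -0.80, edgeR adjusted p = 0.116; limma-voom log2 fold change -0.53, adjusted p = 0.114). The cochaperone *Dnajb1* went the other way, at 38.7 ± 4.88 and 29.9 ± 5.03 CPM (log2 fold change 0.38, edgeR adjusted p = 0.112). The summed list was 2040 ± 286 CPM (SD, n = 6) in knockout and 1990 ± 280 CPM (SD, n = 5) in wild-type tumors. That order turned without knockout tumor 5 (1970 and 1990 CPM) or wild-type tumor 3 (2040 and 2090 CPM). The sum is weighted to abundant genes, led by *Hsp90ab1* with a mean of 716 CPM, and says little about scarcer ones such as *Hspa1a*. The time from excision to freezing was not analysed here.

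Markers of the cells a mammary tumor can hold were summed in each tumor. Luminal epithelial markers, 12 of 12 measured with *Ehf* the most abundant, summed to between 1760 and 3490 CPM, the highest of the cell type lists. Basal or myoepithelial markers (8 of 8, *Oxtr* the most abundant) averaged 345 ± 117 CPM (SD, n = 6) in knockout and 407 ± 304 CPM (SD, n = 5) in wild-type tumors. Fibroblast markers (9 of 9, led by *Col1a1*) averaged 695 ± 199 and 573 ± 164 CPM, endothelial markers (8 of 8, led by *Cdh5*) 83.4 ± 19.7 and 94.5 ± 18.1 CPM, and adipocyte markers (8 of 8, led by *Lpl*) 29.4 ± 25.1 and 41.9 ± 41.6 CPM. Macrophage markers (9 of 9, led by *Lyz2*) averaged 440 ± 101 CPM (SD, n = 6) in knockout and 306 ± 101 CPM (SD, n = 5) in wild-type tumors. Most of that gap lay in *Lyz2*, at 193 ± 36.9 and 94.4 ± 41.3 CPM (log2 fold change 1.02, edgeR adjusted p = 0.0657; called higher by DESeq2, adjusted p = 0.00615, and limma-voom, adjusted p = 0.0411), and the other 8 summed to 246 ± 67.9 and 212 ± 63.5 CPM. T cell markers (8 of 8, led by *Cd8a*) averaged 6.97 and 7.78 CPM, neutrophil markers (6 of 8, led by *Csf3r*) 3.06 and 3.98 CPM, B cell markers (3 of 6, led by *Jchain*) 1.79 and 2.69 CPM, and mast cell markers (4 of 6, led by *Mcpt4*) 0.572 and 1.0 CPM. Skeletal muscle markers (8 of 8, led by *Acta1*) averaged 8.6 and 7.1 CPM. 

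Single tumors set several of these means. Luminal epithelial markers averaged 2870 CPM in knockout and 2970 CPM in wild-type tumors. That order turned without knockout tumor 1 (3090 and 2970 CPM) or wild-type tumor 1 (2870 and 2840 CPM). Without wild-type tumor 1 the wild-type mean of basal or myoepithelial markers was 280 CPM, below that of knockout tumors. Without wild-type tumor 3 that of adipocyte markers was 23.6 CPM and without wild-type tumor 2 that of neutrophil markers 2.8 CPM, both also below knockout, and mast cell markers averaged 0.638 CPM without wild-type tumor 3. B cell markers averaged 1.17 CPM in knockout tumors without knockout tumor 6. Skeletal muscle markers averaged 1.19 CPM without wild-type tumor 5, and their order turned without knockout tumor 1 (5.74 CPM in knockout), knockout tumor 4 (6.25 CPM in knockout), wild-type tumor 2 (8.71 CPM in wild-type) or wild-type tumor 3 (8.7 CPM in wild-type). No marker that was measured was at 0 in all tumors, and every list overlapped between the genotypes. *Ly6g*, *Retnlg*, *Ms4a1*, *Cd79a*, *Cpa3* and *Ms4a2* were not analysed here.

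Promoter windows of 300 bases, from 250 before to 50 after the annotated start, were taken from RefSeq (GRCm38.p6) and matched by symbol for 7 of the 10 genes, all but *Fosl1*, *Egr1* and *Ier2*. Each window was searched on both strands. The cAMP response element TGACGTCA was in 1 of the 7, *Dusp1*, beside 1.79% of 32851 promoters. Its core TGACG, which lies inside it, was in 5 of the 7 (*Fos*, *Fosb*, *Junb*, *Atf3* and *Dusp1*), beside 20.8% of promoters. The AP-1 site TGANTCA and the CArG box, the sequence bound by serum response factor, were in 0 of the 7 windows, beside 7.81% and 1.63% of promoters. Sequence more than 250 bases before the start was not searched, so a site there would be missed. TATAAA was in 2 of the 7 beside 13.6%, and GGGCGG in 5 of the 7 beside 35.7%. The RefSeq start lay 1210 bases from the deposited start of *Jund* and 34706 bases from that of *Atf3*, so those windows belong to other annotated starts.

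The windows of *Fos* and *Fosb*, the pair with the highest r among those compared with *Fos*, and of *Dusp1*, the gene with the lowest adjusted p, are shown 5′ to 3′ on the gene's strand, with capitals for TGACG on either strand and for TGACGTCA. They lie at chr12:85473640-85473939 (plus strand), chr7:19309996-19310295 (minus strand) and chr17:26508423-26508722 (minus strand) of GRCm38.p6. The matches describe letters in these windows, and binding was not measured.
*Fos*: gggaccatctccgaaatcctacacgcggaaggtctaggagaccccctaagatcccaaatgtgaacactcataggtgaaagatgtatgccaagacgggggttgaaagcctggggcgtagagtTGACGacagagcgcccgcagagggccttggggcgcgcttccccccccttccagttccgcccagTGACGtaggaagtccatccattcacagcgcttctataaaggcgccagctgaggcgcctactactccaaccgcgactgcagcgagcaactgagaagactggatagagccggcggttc
*Fosb*: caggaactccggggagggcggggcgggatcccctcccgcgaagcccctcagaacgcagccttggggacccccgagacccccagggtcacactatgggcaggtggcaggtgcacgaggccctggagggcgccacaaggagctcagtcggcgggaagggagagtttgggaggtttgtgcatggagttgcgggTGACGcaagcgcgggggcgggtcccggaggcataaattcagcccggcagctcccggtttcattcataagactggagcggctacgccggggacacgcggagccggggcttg
*Dusp1*: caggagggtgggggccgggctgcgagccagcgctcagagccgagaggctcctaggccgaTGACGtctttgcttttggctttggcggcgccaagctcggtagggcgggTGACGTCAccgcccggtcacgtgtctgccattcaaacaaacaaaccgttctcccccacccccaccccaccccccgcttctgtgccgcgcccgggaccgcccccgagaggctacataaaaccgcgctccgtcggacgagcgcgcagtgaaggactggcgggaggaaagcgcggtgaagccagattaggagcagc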

How the data were processed

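The authors extracted RNA from flash-frozen tumors with Trizol, sequenced paired-end libraries on a NovaSeq instrument and aligned reads to GRCm38 with Bowtie2; the submitters' notes also name FastQC and Partek. The counting method and annotation version are not given in the sources used here. The deposited estimated counts are unnormalized, and the deposited CPM values are those counts per 1000000 of each tumor's total. The counts were rounded to whole numbers, and genotype was tested with edgeR 4.0.16 (quasi-likelihood, TMM factors, filterByExpr, genotype as the only term, Benjamini-Hochberg over all genes tested) in R 4.3.3. DESeq2 1.42.0 and limma 3.58.1 served as alternatives. Permutation tests used 100000 resamples or full enumeration (scipy 1.17.1). Named genes were all members, called genes of each list (at most 5, otherwise the 2 with the lowest p) and the 5 genes most like *Fos*; *Ccnd1*, *Hsp90aa1*, the values of *Lyz2*, *Hspa1a* beside *Egr1* and the pairs *Junb* with *Ier2* and *Jund* with *Dusp1* were picked after their values were seen. Single genes and calls of the list of other bZIP proteins are not reported here. Members and lists were chosen with earlier results of these data known. The split of unadjusted calls by direction, the comparison with genes of similar level, the motif search and the marker sums without single tumors or *Lyz2* were added after the values were seen. The fits were tested on simulated data. Exon lengths came from GENCODE vM39, whose coordinates were not used because its build differs.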

Additional observations from a re-analysis of the deposited data

Results flagged for a closer look

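A value far from the rest of its genotype group, by Dixon's gap against the range, was found in 6 of 48 groups of values, where chance gives about 1 in 20 groups, or 2.4. *Fos* was at 87.1 CPM in PyMT *Pcbp1*+/+ tumor 1, beside 53.0 CPM in the next tumor of the group. In PyMT *Pcbp1*–/– tumor 6, *Fosb* was high at 14.8 CPM (next 5.32 CPM) and *Junb* low at 78.9 CPM (next 95.3 CPM). Summed B cell markers were 4.87 CPM in the same knockout tumor (next 1.54 CPM). Summed adipocyte markers reached 115 CPM in wild-type tumor 3 (next 31.7 CPM), and summed skeletal muscle markers 30.8 CPM in wild-type tumor 5 (next 2.19 CPM). The part of these cells in the results was not tested.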

How the results depend on the processing

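With edgeR, 319 genes were lower and 117 higher in knockout tumors. DESeq2 gave 723 and 482, limma-voom with sample quality weights 1190 and 968, and the cause was not tested. Leaving out each tumor in turn, which leaves fewer samples, gave 144 to 389 lower and 41 to 187 higher genes. Of the 10 genes, 0 were called in either direction, except that 1, *Dusp1*, was lower with limma-voom and without wild-type tumor 2, so that the count ranged from 0 to 1. All 10 fold changes stayed below 0 under every alternative that kept the tumors, and under the replicate block. With 1 tumor left out, *Fosb* ranged from -0.63 to 0.18 and *Jun* from -0.17 to 0.075; both were above 0 without knockout tumor 1 (0.11 and 0.011), knockout tumor 2 (0.06 and 0.075), wild-type tumor 1 (0.18 and 0.03) or wild-type tumor 3 (0.08 and 0.03). The other 8 kept their sign; with limma-voom *Fos* was -0.27 and *Junb* -0.20, and *Fosl1* was -0.48 with limma on log2(CPM + 1). Under the replicate block, fitted to 10 tumors that share a number across genotypes, 118 genes were lower and 42 higher and 0 of the 10 genes were called. Same-numbered tumors deviated together with r = 0.134, 0.0867, -0.079, -0.144 and 0.293. Knockout tumors 1 and 5 were closest to the wild-type tumor of their own number, and knockout tumors 2, 3 and 4 to one of another number. Whether the numbers pair the tumors was not tested. With values centred on group means, the correlation of *Fos* with *Fosb* was 0.806 (permutation test within groups, adjusted p = 0.0174; 0.0562 to 0.204 under the other 4 alternatives), and that with *Dusp1* -0.0893. Without the tumors farthest from the median of *Fos*, r was -0.14 for *Jun*, -0.024 for *Junb* and -0.117 for *Dusp1*. Within the 6 knockout tumors r was -0.239 for *Fosl1*, -0.657 for *Junb*, -0.102 for *Dusp1* and -0.684 for *Ier2*. The alternatives were extended, after seeing the data, to the genes named from other lists with a fold change or a call. No fold change among them turned its sign. Calls that edgeR did not make with all tumors appeared for *Lyz2* in 5 of 21 alternatives and for *Map2k7*, *Araf*, *Dnajb1* and *Ccnd1* in 2 each. They appeared for *Spp1*, *Hspa1a* and *Hsp90aa1* in 1 each. Some of those alternatives were edgeR fits with 1 tumor left out. The call for *Per1* was lost in 14. The counts of *Fosl1*, 4 to 22 a tumor, limit its precision.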
